A study of Mus musculus with 8 samples.

Results

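The CXC chemokines Cxcl1, Cxcl2, Cxcl5, Cxcl9, Cxcl10, Cxcl13, Cxcl14 and Cxcl16 were followed through single-cell RNA sequencing data of the mouse femur, intact or 14 days into fracture healing. These 8 genes were taken by name from the gene column of the deposited tables, a choice made with earlier results of these data known, and all 8 were among the 25912 genes kept of 28956 listed. Values are counts of unique molecular identifiers (UMIs), where 1 UMI is 1 transcript caught in a droplet, given as CPM, a gene's summed UMIs in a class and preparation scaled so that the sum over all genes is the same in each.

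All animals were C57BL/6 females, and every library held bone cells from which blood lineages, CD45+ and CD117+ cells had been removed with magnetic beads. The Control group was wild-type and unfractured at 12 weeks of age. The Fracture group had the femur of the left leg broken by three-point bending at 10 weeks, stabilised with an intramedullary nail, and was collected at day 14, also at 12 weeks of age. Each group held 2 numbered cell preparations with 2 libraries each, 8 in all. That libraries sharing a number came from 1 preparation was read from the sample titles, which do not state it outright, and the number of animals behind a preparation was not stated. The preparation was the replicate (n = 2 per group), so that p-values measure the spread between these preparations.

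Chemokines are small secreted proteins that steer the migration of leukocytes through receptors on the target cell. Cxcl1, Cxcl2 and Cxcl5 act through Cxcr2 and draw neutrophils, and their genes are switched on by inflammatory signals such as interleukin-1 and tumour necrosis factor through NF-kB. Cxcl9 and Cxcl10 are induced by interferon and draw T cells and natural killer cells through Cxcr3, Cxcl13 attracts B cells through Cxcr5, Cxcl16 is a membrane-bound ligand of Cxcr6 that proteases can shed, and Cxcl14 is made without stimulation by many epithelial and stromal cells. In bone marrow, stromal cells around vessels are best known for another member of the family, Cxcl12, which retains blood stem cells.

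Of the 8 genes, 6 lie on chromosome 5 of the mouse genome (GRCm38, GENCODE M21). Cxcl5 (chr5:90759360-90761624), Cxcl1 (chr5:90891241-90893115) and Cxcl2 (chr5:90903871-90905938) lie close together on the plus strand, Cxcl9 (chr5:92321347-92328079) and Cxcl10 (chr5:92346638-92348889) lie together on the minus strand, and Cxcl13 (chr5:95956951-95961068) lies further along on the plus strand. Cxcl14 (chr13:56288643-56296551) and Cxcl16 (chr11:70453983-70459984) lie on the minus strands of chromosomes 13 and 11.

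Promoter sequence is shown for Cxcl1 and Cxcl2 and for the interferon-induced Cxcl9 and Cxcl10, because all 4 were higher in smooth muscle-like cells of the Fracture group. RefSeq entries (GRCm38.p6) were found for 6 of the 8 members, all but Cxcl5 and Cxcl16. The letters GGGAATTTC, a form of the kB site bound by NF-kB factors, and GAAANNGAA, the core of the interferon-stimulated response element, were searched on both strands of the 250 bases before each start. GGGAATTTC was found in 77 of 32851 promoters (0.234%), among them those of Cxcl1, Cxcl2 and, on the opposite strand, Cxcl9. GAAANNGAA was found in 2342 promoters (7.13%), among them those of Cxcl9, Cxcl10 and Cxcl14. Other forms of the kB site were not searched. Capitals mark the matches, and a match describes letters only. The windows run from 120 to 31 bases before the start for Cxcl1 (chr5:90891125-90891214, plus strand) and Cxcl2 (chr5:90903779-90903868, plus strand), and from 220 to 121 bases before it for Cxcl9 (chr5:92328200-92328299, minus strand) and Cxcl10 (chr5:92349010-92349109, minus strand).
Cxcl1: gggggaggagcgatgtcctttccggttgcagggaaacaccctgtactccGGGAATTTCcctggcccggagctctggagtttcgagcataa
Cxcl2: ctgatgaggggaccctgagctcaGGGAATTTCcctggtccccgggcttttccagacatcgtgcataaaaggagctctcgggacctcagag
Cxcl9: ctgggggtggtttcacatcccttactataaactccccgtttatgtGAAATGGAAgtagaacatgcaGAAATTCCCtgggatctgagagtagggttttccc
Cxcl10: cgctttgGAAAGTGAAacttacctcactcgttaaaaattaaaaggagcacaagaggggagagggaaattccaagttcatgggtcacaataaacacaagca

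Libraries held 56543151 to 89126291 UMIs, and 45390 of 48903 barcodes passed the filters, with a median of 7302 and 8251.5 UMIs per cell in Control and 10885 and 11555.5 in Fracture. Pairs of libraries shared 10 to 23 barcodes. The tables of Control preparation 1 listed no gene whose symbol begins with U, and such genes were left out everywhere. Cells fell into 8 classes named from marker genes. The class of bone mesenchymal stromal cells (BMSC-like) joined a cluster with 8 of 8 markers over 2-fold and a cluster led by Mmp9, Tnc and Limch1 with 3 of 8, and it held 3038 and 1876 cells in Control and 1770 and 1978 in Fracture. Its summed BMSC markers were at 9317 and 10878 CPM in Control and 607 and 647 CPM in Fracture, with 8 of 8 markers lower and not overlapping. Cells of a fibroblast subclass made up 13.6% and 7.09% of it in Control and 40.3% and 42.5% in Fracture, so values are also given within subclasses. The chondrocyte-like class also joined 2 clusters. That led by Col10a1, Frzb and Ihh held 1113 and 382 cells in Control and 5624 and 5894 in Fracture. That led by Serpina1a, Serpina1d and Serpina1b held 958 and 299, then 1188 and 1248. This class was not divided further, and the part of its makeup in the chemokine values was not tested.

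The first comparison asked which cells carried these transcripts in each group. On the mean over the 4 preparations, Cxcl9, Cxcl13 and Cxcl14 were highest in BMSC-like cells, Cxcl10 and Cxcl16 in endothelial-like cells, Cxcl1 in smooth muscle-like cells, Cxcl2 in granulocyte-like cells and Cxcl5 in megakaryocyte-like cells. The order changed with the group. In Control, Cxcl10 was highest in BMSC-like cells (63.3 against 45.8 CPM in endothelial-like cells), and these classes overlapped for both Cxcl9 and Cxcl10. In Fracture, endothelial-like cells led for Cxcl9 (90.4 against 31.8 CPM in BMSC-like cells). BMSC-like cells led there for Cxcl16 (26.2 against 20.8 CPM) and smooth muscle-like cells for Cxcl2 (38.5 against 35.9 CPM in granulocyte-like cells, overlapping). Without integration across libraries, and again on the mean over the 4 preparations, BMSC-like cells led for 5 members instead of 3, with Cxcl10 and Cxcl16 added.

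The class with the highest level did not always hold most of the transcripts. Chondrocyte-like cells held 45.8% and 35.6% of all Cxcl1 UMIs in Control and 64.7% and 56.7% in Fracture, while smooth muscle-like cells held 9.96% and 17.0%, then 4.88% and 6.32%. For Cxcl2 the source moved furthest. Granulocyte-like cells held 95% and 98.3% of its UMIs in Control and 6.35% and 1.66% in Fracture, where chondrocyte-like cells held 39.1% and 36.2% and BMSC-like cells 31.1% and 40.6%. These shares also follow the numbers of cells, since granulocyte-like cells numbered 2279 and 914 in Control and 88 and 90 in Fracture. Without integration across libraries, BMSC-like cells held 0 of 630 and 1 of 1022 Cxcl2 UMIs in Fracture. A fibroblast-like class then held 190 and 404.

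Megakaryocyte-like cells, the platelet-forming lineage, held 91.4% and 88.0% of Cxcl5 UMIs in Control and 4.72% and 2.39% in Fracture, and BMSC-like cells held 5.02% and 8.77%, then 87.5% and 92.2%. Megakaryocyte-like cells numbered 696 and 226 in Control and 22 and 21 in Fracture, and in them Cxcl5 itself was at 395, 363, 384 and 344 CPM, with overlapping groups. For Cxcl14, BMSC-like cells held 87.7% and 94.0% in Control and 32.1% and 39.0% in Fracture, where chondrocyte-like cells held 63.8% and 57.8%. For Cxcl9, the share of BMSC-like cells was 67.9% and 83.5% in Control and 37.6% and 30.6% in Fracture, and that of endothelial-like cells was 24.9% and 13.7%, then 57.6% and 64.4%. The Fracture shares of BMSC-like cells were smaller without integration across libraries. They then held 9 of 2544 and 3 of 3979 UMIs of Cxcl5, where a fibroblast-like class held 2215 and 3521. For Cxcl14 they held 502 of 6558 and 684 of 8206 (fibroblast-like 1411 and 2357). For Cxcl9 they held 32 of 1643 and 66 of 2038 (fibroblast-like 564 and 543).

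**Figure D1:**
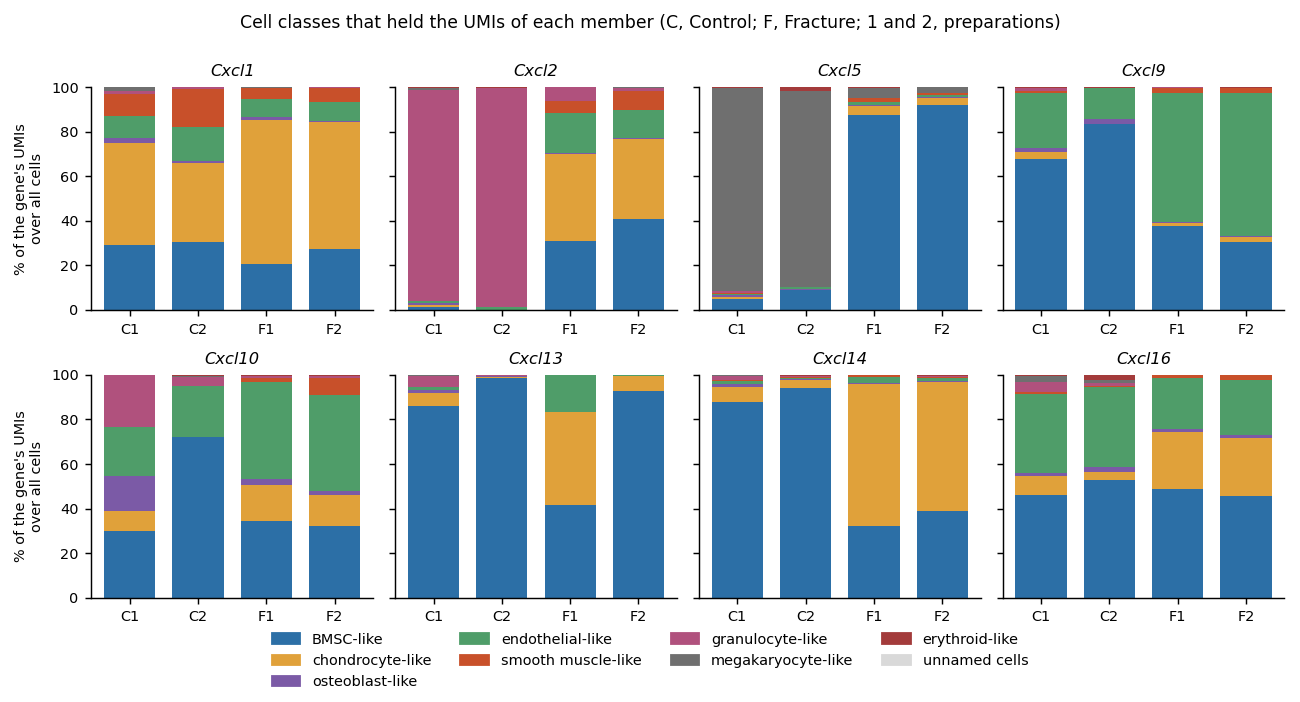
Share of each chemokine's UMIs (percent of all its UMIs in a preparation) held by each cell class, for Control preparations 1 and 2 and Fracture preparations 1 and 2. The classes are those formed after integration across libraries. The share of Cxcl2 held by granulocyte-like cells was 95% and 98.3% in Control and 6.35% and 1.66% in Fracture, and the share of Cxcl5 held by BMSC-like cells was 5.02% and 8.77%, then 87.5% and 92.2%.

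**Figure D2:**
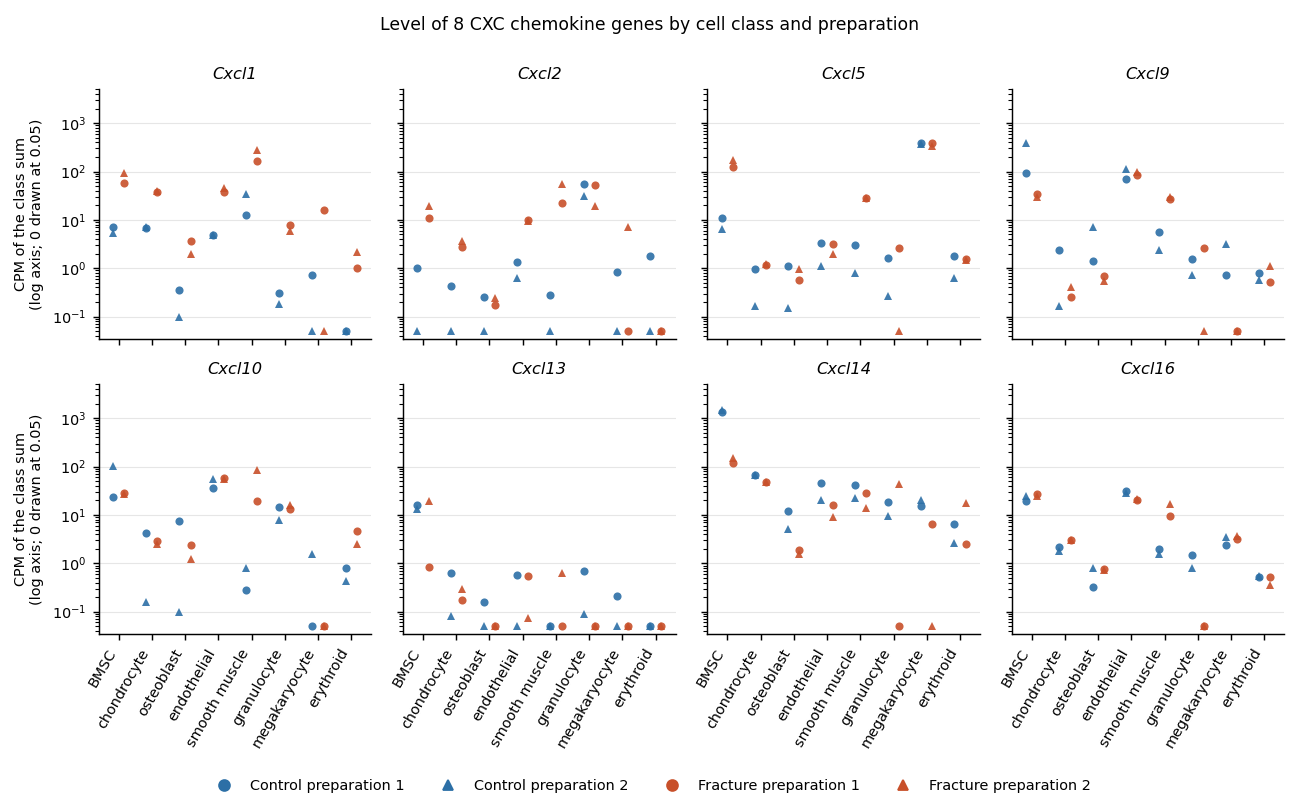
Level of the 8 chemokines in each cell class, in CPM of the summed UMIs on a log axis, with 1 point per preparation (2 Control and 2 Fracture) and values of 0 drawn at 0.05. Cxcl14 in BMSC-like cells sat at 1367 and 1470 CPM in Control and at 117 and 151 CPM in Fracture, while Cxcl5 in megakaryocyte-like cells stayed between 344 and 395 CPM in all 4 preparations.

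The second comparison asked which members differed between Fracture and Control within a class, with the quasi-likelihood test of edgeR on summed counts, Benjamini-Hochberg adjustment over all genes tested in the class and a threshold of 0.05. Over the 8 classes, members rose in 17 cases and fell in 7. In BMSC-like cells all 8 members were tested, 4 rose and 2 fell, where 27.5% of all genes tested rose and 28.6% fell. In chondrocyte-like cells 3 of 8 rose and 1 fell, against 23.7% and 21.7% of all genes.

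Of 6 members tested in osteoblast-like cells, 1 rose and 2 fell, against 14.4% and 12.1%. In endothelial-like cells 2 of 7 rose and 2 fell, against 22.6% and 20%. Of 7 members tested in smooth muscle-like cells, 6 rose and 0 fell, where 18.6% of all genes rose and 16.8% fell. Among the blood classes, 1 of 4 members tested rose in granulocyte-like cells (1.42% of all genes rose), 0 of 2 were called in megakaryocyte-like cells (5.92% of all genes in either direction) and 0 of 1 in erythroid-like cells (2.86%).

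The difference of the change between classes was tested as well, BMSC-like against each other class outside the blood, for all 8 members. It was called for 3 members against chondrocyte-like cells (43.2% of all genes were called), 2 against osteoblast-like (34.9%), 4 against endothelial-like (26.1%) and 4 against smooth muscle-like cells (18.6%).

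**Figure D3:**
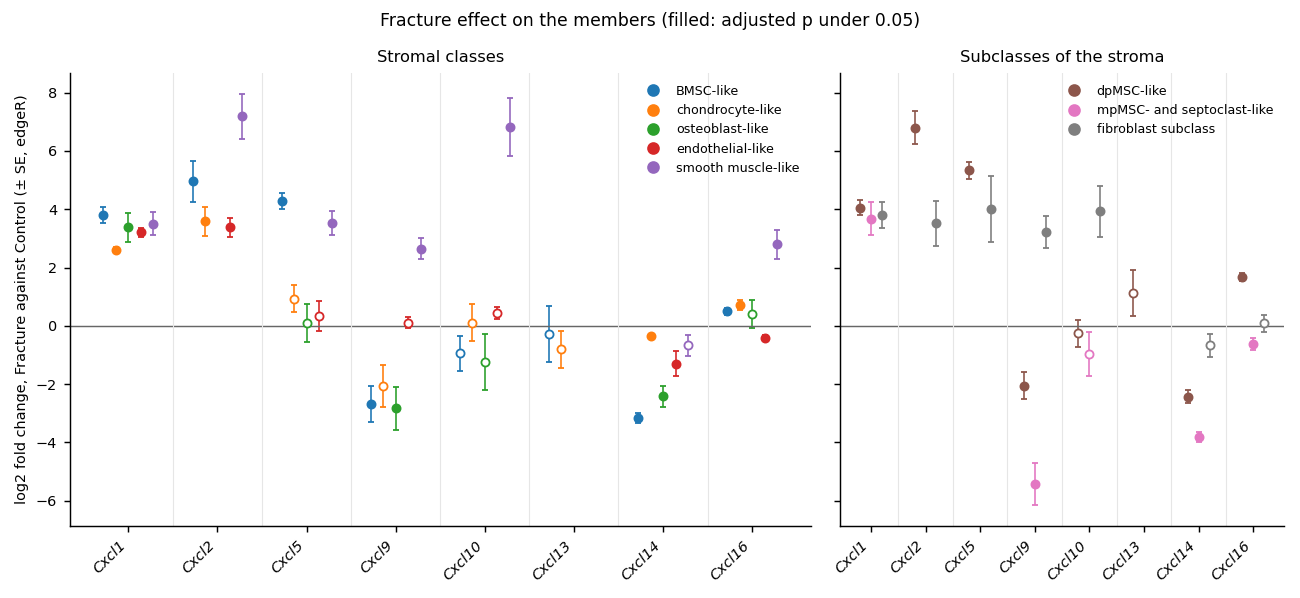
Fracture against Control log2 fold change (edgeR) of each member tested in the 5 classes outside the blood and the 3 stromal subclasses, with the standard error as bars and calls at an adjusted p under 0.05 as filled points. Cxcl1 was higher in Fracture in the 5 classes outside the blood, at 2.61 to 3.80, while Cxcl14 ran from -0.34 to -3.17 there.

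Of the neutrophil-attracting ligands, Cxcl1 rose in 6 classes, Cxcl2 in 4 and Cxcl5 in 2. The 6 classes of Cxcl1 included the 5 outside the blood. In BMSC-like cells Cxcl1 was at 7.02 and 5.47 CPM in Control and 57.5 and 91.2 CPM in Fracture, a log2 fold change of 3.80 (SE 0.27, adjusted p = 0.000224). Both Fracture preparations lay above both Control preparations.

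In chondrocyte-like cells Cxcl1 was at 6.88 and 7.29 CPM in Control and 37.3 and 39.7 CPM in Fracture, with a log2 fold change of 2.61 (SE 0.08, adjusted p = 9.4e-06). In endothelial-like cells it was at 4.95 and 4.79 CPM, then 38.2 and 44.7 CPM, with a log2 fold change of 3.21 (SE 0.15, adjusted p = 0.0002). The preparations of a group were close to each other in both classes and the groups did not overlap.

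In smooth muscle-like cells, which held the highest level, Cxcl1 was at 12.4 and 33.9 CPM in Control and 165 and 284 CPM in Fracture, a log2 fold change of 3.51 (SE 0.38, adjusted p = 0.000107). In Fracture preparation 2 a single cell held 237 of the 445 UMIs of Cxcl1 in this class. Osteoblast-like cells had little Cxcl1, at 0.357 and 0.0996 CPM in Control and 3.73 and 1.94 CPM in Fracture (log2 fold change 3.38, SE 0.50, adjusted p = 0.00136). Erythroid-like cells, which serve as background, were at 0 and 0 CPM, then 1.02 and 2.18 CPM, so the level in Fracture preparation 2 of osteoblast-like cells was not above that background.

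Granulocyte-like cells were at 0.303 and 0.178 CPM, then 7.80 and 5.81 CPM of Cxcl1 (log2 fold change 4.63, SE 0.74, adjusted p = 0.0382), with 6 and 5 UMIs behind the Fracture values. This call was lost without Fracture preparation 2 (adjusted p = 0.24) and with the preparation number as a block (0.051). The cells of this class differed in makeup, since summed neutrophil markers were at 9243 and 12487 CPM in Control and 44947 and 55482 CPM in Fracture (4 of 8 higher, 2 lower), and summed basophil markers at 31340 and 38981 CPM, then 10044 and 9082 CPM (6 of 6 lower). Their part in the Cxcl1 values was not tested.

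The rise of Cxcl1 was smaller in chondrocyte-like than in BMSC-like cells by 1.14 on the log2 scale (SE 0.29, adjusted p = 0.0217, a test of the class and group interaction). Its difference from the rise in endothelial-like cells was 0.61 (SE 0.25, adjusted p = 0.12), and it was 0.31 (SE 0.37) for smooth muscle-like and 0.38 (SE 0.94) for osteoblast-like cells, neither called. Without integration all 4 differences were below 0, at -0.59 (adjusted p = 0.29) for chondrocyte-like, -1.24 (0.031) for endothelial-like, -1.71 (0.08) for smooth muscle-like and -1.61 (0.046) for osteoblast-like cells. Against smooth muscle-like cells it was 1.23 (adjusted p = 0.0015) without Control preparation 1.

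Cxcl2 was near absent from the stroma of Control bone. In BMSC-like cells it was at 1.02 and 0 CPM in Control and 10.9 and 19.6 CPM in Fracture (log2 fold change 4.96, SE 0.70, adjusted p = 0.00198), although DESeq2 gave an adjusted p of 0.059. In chondrocyte-like cells it was at 0.432 and 0 CPM, then 2.80 and 3.68 CPM (log2 fold change 3.58, SE 0.51, adjusted p = 0.00196). In endothelial-like cells it was at 1.35 and 0.614 CPM, then 9.99 and 9.33 CPM (log2 fold change 3.38, SE 0.33, adjusted p = 0.000839). Low values in Control and non-overlapping groups held for all 3 classes. Without integration Cxcl2 in BMSC-like cells was at 0.676 and 0 CPM, then 0 and 1.55 CPM, too low to be tested. The rise then stood in a fibroblast-like class, at 1.86 and 0 CPM, then 15.9 and 28.8 CPM (log2 fold change 4.08, SE 0.71, adjusted p = 0.0102).

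Smooth muscle-like cells held 1 UMI of Cxcl2 in Control and 119 in Fracture, at 0.277 and 0 CPM, then 22.7 and 54.2 CPM. The ratio was 190 with a 95% counting interval of 33.4 to 7551, and the adjusted p was 9.9e-05. These UMIs came from 11 and 9 cells of the Fracture preparations, 1 of which held 59 of the 85 UMIs of preparation 2, and the interval covers counting error only. Only in granulocyte-like cells was Cxcl2 high in Control, at 55.6 and 31.4 CPM, where Fracture cells were at 52.0 and 19.8 CPM with overlapping groups (adjusted p = 0.71). Within that class, a subcluster of 100 cells was led by Camp, S100a9, Retnlg and Ngp, genes of maturing neutrophils. It held Cxcl2 at 2048 and 1454 CPM in Control and at 0 in both Fracture preparations, where it had 8 cells each. These were 451 of the 1694 Cxcl2 UMIs of the class. Subclusters of 1043, 967 and 305 cells, which scored highest for basophil or mast cell markers, held 452, 510 and 110.

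Cxcl5 rose in 2 of the 6 classes in which it was tested. In BMSC-like cells it was at 11 and 6.61 CPM in Control and 123 and 173 CPM in Fracture, a log2 fold change of 4.29 (SE 0.28, adjusted p = 0.000185). Few cells carried it, since 86 and 126 BMSC-like cells had any UMI of Cxcl5 in Fracture and the top 10 cells of each preparation held 54.1% and 45.6% of its UMIs. Smooth muscle-like cells held it at 3.04 and 0.789 CPM, then 28.1 and 28.1 CPM (log2 fold change 3.52, SE 0.42, adjusted p = 0.000171). Only 4 and 7 of these Fracture cells held any Cxcl5, and 1 cell held 29 of the 42 UMIs of preparation 1 and 1 cell 31 of the 44 UMIs of preparation 2.

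In chondrocyte-like, osteoblast-like and endothelial-like cells Cxcl5 stayed at or under 3.26 CPM in every preparation and was not called. The change in BMSC-like cells exceeded that in these classes, by 3.27 (SE 0.47, adjusted p = 0.0025) against chondrocyte-like, 4.19 (SE 0.49, adjusted p = 0.000479) against osteoblast-like and 4.01 (SE 0.54, adjusted p = 0.00292) against endothelial-like cells. Against smooth muscle-like cells the difference was 0.66 (SE 0.46, adjusted p = 0.38). Without integration all 4 differences turned, to -1.93 (adjusted p = 0.14) against chondrocyte-like, -0.51 (0.78) against osteoblast-like, -0.86 (0.53) against endothelial-like and -4.51 (0.00083) against smooth muscle-like cells. Without Control preparation 1 the values were 1.75 (adjusted p = 0.27) against chondrocyte-like and 2.48 (0.068) against osteoblast-like cells.

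Within the BMSC-like class, the same 3 ligands rose in both dpMSC-like cells and the fibroblast subclass. The dpMSC-like subclass was named from Esm1, Adipoq, Lepr, Lpl, Hp and Kitl, markers of diaphyseal stromal cells of the marrow, and 4 of the 8 members tested in it rose and 2 fell, where 30.1% of all genes rose and 30% fell. Cxcl5 was at 21.3 and 10.7 CPM in Control and 482 and 607 CPM in Fracture there (log2 fold change 5.34, SE 0.29, adjusted p = 4.5e-07). Cxcl1 was at 12.7 and 7.82 CPM, then 116 and 173 CPM (log2 fold change 4.06, SE 0.25, adjusted p = 9.7e-07). Cxcl2 was at 0.721 and 0 CPM, then 23.8 and 47.2 CPM (log2 fold change 6.80, SE 0.58, adjusted p = 7.4e-06). Both Fracture preparations were above both Control preparations for all 3 genes.

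The dpMSC-like cells of the groups differed in more than chemokines, and in Fracture their markers went against the name. The 6 naming markers summed to 20850 and 18251 CPM in Control and 1904 and 2892 CPM in Fracture (6 of 6 lower), while 6 markers of metaphyseal stromal cells (mpMSC) went from 1667 and 1824 CPM to 7607 and 7888 CPM (3 higher, 3 lower). Their summed BMSC markers were at 18779 and 16899 CPM in Control and 1296 and 1546 CPM in Fracture (8 of 8 lower), and their summed fibroblast markers at 50.5 and 22.8 CPM, then 1341 and 1589 CPM (7 of 8 higher). The part of these in the chemokine values was not tested.

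The fibroblast subclass, led by Cytl1, Cilp, Prg4 and Igfbp6, had 5 of 7 members tested risen and 0 fallen, where 11% of all genes rose and 10.7% fell. Its makeup moved as well, with summed fibroblast markers at 20523 and 23870 CPM in Control and 7515 and 7825 CPM in Fracture (4 of 8 higher, 4 lower), chondrocyte markers at 11429 and 7973 CPM, then 17343 and 15170 CPM (6 of 8 higher), and mpMSC markers at 1857 and 710 CPM, then 4845 and 4825 CPM (3 of 6 higher, 2 lower). The part of these in the chemokine values was not tested. Cxcl1 was at 6.17 and 6.09 CPM in Control and 56.7 and 107 CPM in Fracture (log2 fold change 3.80, SE 0.45, adjusted p = 0.00348). Cxcl2 was at 1.85 and 0 CPM, then 9.21 and 19.3 CPM (adjusted p = 0.0227, and 0.086 without Fracture preparation 2). Cxcl5 was at 4.63 and 0.761 CPM, then 18.8 and 87.5 CPM (adjusted p = 0.0491), a call lost with library sizes alone (adjusted p = 0.053), in cells of at least 3000 UMIs (0.054) and without Control preparation 1 (0.066).

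The mpMSC- and septoclast-like subclass, which joins metaphyseal stromal cells with the cartilage-resorbing septoclasts and was led by Mmp9, Limch1 and Mmp13, had 1 of 5 members tested risen and 3 fallen, where 19.9% of all genes rose and 18.5% fell. Of its 2451 cells, 116 came from the osteoblast-like class. Cxcl1 was low in this subclass, at 0.762 and 0.7 CPM in Control and 4.75 and 12.8 CPM in Fracture (log2 fold change 3.68, SE 0.58, adjusted p = 0.000544). Its summed fibroblast markers went from 110 and 73.9 CPM to 385 and 534.5 CPM (6 of 8 higher, 0 lower), and their part was not tested. Cxcl5 was at or under 2.13 CPM and Cxcl2 at or under 0.914 CPM in every preparation, too low to be tested.

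**Figure D4:**
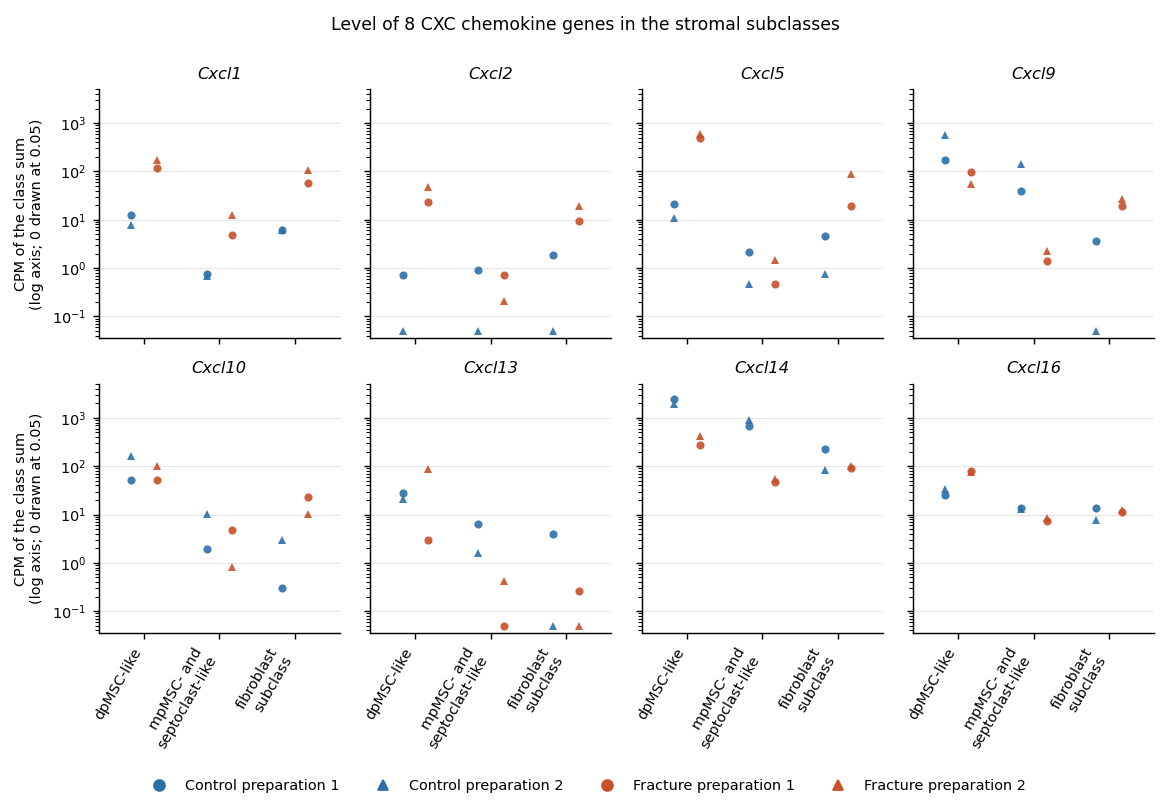
Level of the 8 chemokines in the stromal subclasses, in CPM of the summed UMIs on a log axis, with 1 point per preparation (2 Control and 2 Fracture) and values of 0 drawn at 0.05. Cxcl5 in dpMSC-like cells sat at 21.3 and 10.7 CPM in Control and 482 and 607 CPM in Fracture, and Cxcl14 in mpMSC- and septoclast-like cells sat at 674 and 902 CPM, then 46.7 and 55.7 CPM.

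The place of Cxcl5 within the stroma depended on how cells were clustered. At the resolution of 0.2 the dpMSC-like cells of Fracture numbered 213 and 265 in place of 393 and 425. Cxcl5 in dpMSC-like cells was then at 22.0 and 10.4 CPM in Control and 512 and 476 CPM in Fracture. The fibroblast subclass was at 6.36 and 7.46 CPM, then 190 and 320 CPM, below the dpMSC-like cells in every preparation. At the resolution of 0.08 it had been at 4.63 and 0.761 CPM, then 18.8 and 87.5 CPM. Without integration across libraries, BMSC-like cells numbered 2040 and 1472 in Control and 80 and 102 in Fracture, Cxcl5 was not called in them (log2 fold change -0.29, SE 0.63, adjusted p = 0.829), and the rise stood in a fibroblast-like class instead (log2 fold change 6.16, SE 0.38, adjusted p = 0.000584). That class held 434 and 139 cells in Control and 1076 and 1214 in Fracture. Cxcl1 was higher in Fracture in both of these classes, by 2.01 (SE 0.34, adjusted p = 0.00481) in BMSC-like and by 4.11 (SE 0.37, adjusted p = 0.00152) in fibroblast-like cells.

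Cells holding more than 1 of these ligands were counted in dpMSC-like cells of the Fracture group, as a description with no test. After random thinning of the cells to a common 1000 UMIs, 32.3% and 37.5% of Cxcl1-positive cells of the 2 preparations held a UMI of Cxcl5, where Cxcl1-negative cells of the same preparations held it in 6.63% and 8.91%. These shares rest on 10 of 31 and 12 of 32 positive cells. Cxcl2 was found in 5 and 2 of the positive cells (16.1% and 6.25%) and in 1.38% and 1.53% of the negative cells.

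Of the interferon-induced ligands, Cxcl9 fell in 2 classes and rose in 1, and Cxcl10 rose in 1. In BMSC-like cells, where Cxcl9 fell, it was at 92.7 and 390 CPM in Control and 34.2 and 29.3 CPM in Fracture (log2 fold change -2.67, SE 0.62, adjusted p = 0.0122). The Control preparations lay far apart, and the value was -1.32 without Control preparation 2, while leaving out either Fracture preparation gave an adjusted p of 0.067. Endothelial-like cells held Cxcl9 at 71.3 and 111 CPM in Control and 85.2 and 95.6 CPM in Fracture, with overlapping groups (adjusted p = 0.66).

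Smooth muscle-like cells went the other way, with Cxcl9 at 5.53 and 2.37 CPM in Control and 27.4 and 30 CPM in Fracture (log2 fold change 2.64, SE 0.36, adjusted p = 0.000438), from 9 and 12 cells with a UMI in Fracture. The difference between BMSC-like and smooth muscle-like cells was -4.72 (SE 0.51, adjusted p = 4.6e-05). That between BMSC-like and endothelial-like cells was -2.49 (SE 0.44, adjusted p = 0.0082), a call lost without either Fracture preparation (adjusted p = 0.065 and 0.075). In osteoblast-like cells Cxcl9 was at 1.43 and 7.12 CPM, then 0.689 and 0.534 CPM (log2 fold change -2.84, SE 0.74, adjusted p = 0.0214). There, 12 cells held the 143 UMIs of Control preparation 2, the value was -1.28 without it, and DESeq2 gave an adjusted p of 0.063.

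Among subclasses, Cxcl9 fell in mpMSC- and septoclast-like cells from 40.1 and 143 CPM to 1.42 and 2.27 CPM (log2 fold change -5.42, SE 0.73, adjusted p = 0.000204). A single cell held 382 of the 614 UMIs of Control preparation 2. In the finer mpMSC-like cluster it was at 73.7 and 242 CPM, then 4.17 and 3.95 CPM. The finer septoclast-like cluster held Cxcl9 at 1.64 CPM over all its cells. In dpMSC-like cells it was at 175 and 577 CPM, then 98.0 and 54.6 CPM (log2 fold change -2.05, SE 0.46, adjusted p = 0.00356), and the value was -0.98 without Control preparation 2. At the resolution of 0.2 dpMSC-like cells held Cxcl9 at 164 and 601 CPM, then 198 and 96.6 CPM, with overlapping groups. In the fibroblast subclass it went up, from 3.70 and 0 CPM in Control to 19.1 and 27.4 CPM in Fracture (log2 fold change 3.23, SE 0.55, adjusted p = 0.011), but at the finer subclass resolution of 0.2 the value was -1.15. Summed monocyte, macrophage and dendritic markers in this subclass were at 14.8 and 6.85 CPM, then 23.6 and 48.3 CPM (4 higher, 1 lower), and their part was not tested. In Control the level was high in the dpMSC-like and the mpMSC- and septoclast-like subclass and low in the fibroblast subclass.

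Cxcl10 in BMSC-like cells was at 23.5 and 103 CPM in Control and 28.6 and 26.7 CPM in Fracture, with overlapping groups and no call (log2 fold change -0.94, SE 0.60, adjusted p = 0.224). Its direction rested on Control preparation 2, since the value was 0.46 without that preparation. It rested on the clustering too, with 0.37 (SE 0.74, adjusted p = 0.812) without integration. Few cells carried it, and the top 10 cells held 78.0% to 87.2% of its UMIs in each preparation. Endothelial-like cells held Cxcl10 at 35.5 and 56.1 CPM, then 58.8 and 56.0 CPM (adjusted p = 0.11).

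Cxcl10 in smooth muscle-like cells was at 0.277 and 0.789 CPM in Control and 19.4 and 86.8 CPM in Fracture, with 2 UMIs against 165, a ratio of 131 and a 95% counting interval of 35.8 to 1095 (adjusted p = 0.000606). Only 6 and 11 cells of the Fracture preparations held any UMI of it, and 1 cell held 76 of the 136 UMIs of preparation 2. The change in BMSC-like cells less that in smooth muscle-like cells was -7.29 (SE 0.95, adjusted p = 0.000197). In granulocyte-like cells Cxcl10 was at 14.6 and 7.83 CPM, then 13 and 16.3 CPM, and was not called.

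Cxcl10 in the fibroblast subclass was at 0.309 and 3.05 CPM in Control and 23.6 and 10.2 CPM in Fracture (log2 fold change 3.93, SE 0.87, adjusted p = 0.0243). The call was lost at the resolution of 0.2 (log2 fold change 0.98, adjusted p = 0.4) and without Control preparation 1 (0.068) or Fracture preparation 1 (0.07). Without integration Cxcl10 rose in the fibroblast-like class, from 2.48 and 2.97 CPM to 40.5 and 29.2 CPM (log2 fold change 3.70, SE 0.35, adjusted p = 0.0017). In dpMSC-like cells it was at 51.0 and 166 CPM, then 50.9 and 101 CPM, with overlapping groups. Among endothelial-like cells, Cxcl10 was found in 15.2%, 17.0%, 13% and 17.9% of cells with Cxcl9 and in 0.399%, 1.34%, 2.49% and 1.86% of cells without it in the 4 preparations, on 46 to 67 positive cells each and with no test.

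Cxcl13, the B cell attractant, was highest in BMSC-like cells, at 15.8 and 13.4 CPM in Control and 0.831 and 19.1 CPM in Fracture, and it stayed at or under 0.694 CPM in every preparation of the other classes. The Fracture preparations lay on either side of Control, and no call was made (adjusted p = 0.82). In Fracture preparation 2 its 405 UMIs came from 15 cells, of which the top 10 held 98.8%, whereas 119 and 72 cells carried it in Control. Without Fracture preparation 2 the log2 fold change was -3.88 (adjusted p = 0.0021), and without Fracture preparation 1 it was 0.65. In dpMSC-like cells it was at 28.5 and 21.5 CPM, then 3.03 and 87.1 CPM.

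Cxcl14 fell in 4 of the 5 classes outside the blood. In BMSC-like cells it was at 1367 and 1470 CPM in Control and 117 and 151 CPM in Fracture, a log2 fold change of -3.17 (SE 0.16, adjusted p = 0.000105). The preparations of a group lay close together and far from the other group. It was carried broadly, by 2137 and 1445 cells in Control and 348 and 414 cells in Fracture.

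The fall was found in the dpMSC-like subclass, whose Fracture cells went against that name by their markers, and in the mpMSC- and septoclast-like subclass. In dpMSC-like cells Cxcl14 was at 2427 and 1980 CPM, then 269 and 421 CPM (log2 fold change -2.43, SE 0.23, adjusted p = 1.5e-05). In mpMSC- and septoclast-like cells it was at 674 and 902 CPM, then 46.7 and 55.7 CPM (log2 fold change -3.82, SE 0.16, adjusted p = 1.2e-07). At a finer resolution this subclass split into an mpMSC-like cluster (600 and 356 cells in Control, 217 and 245 in Fracture) and a septoclast-like cluster (297 and 152, then 316 and 312). Cxcl14 was at 1134 and 1465 CPM, then 100 and 102 CPM, in the first and at 99.9 and 114 CPM, then 18.1 and 28.6 CPM, in the second. Summed BMSC markers of the subclass went from 2260 and 2354 CPM to 681 and 692 CPM (8 of 8 lower), and their part was not tested. In the fibroblast subclass the groups overlapped, at 227 and 82.2 CPM, then 93.6 and 99.9 CPM (log2 fold change -0.67, SE 0.40, adjusted p = 0.28). At the resolution of 0.2 this subclass was at 478 and 353 CPM, then 101 and 102 CPM, with groups that did not overlap. The fibroblast-like class found without integration was at 197 and 81.0 CPM, then 118 and 168 CPM, with overlapping groups. Without integration the fall in BMSC-like cells was -0.99 (SE 0.14, adjusted p = 0.00158).

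Elsewhere Cxcl14 was lower in level. Chondrocyte-like cells were at 67.8 and 65.7 CPM in Control and 47.7 and 47.2 CPM in Fracture (log2 fold change -0.34, SE 0.06, adjusted p = 0.00328). Osteoblast-like cells were at 12.0 and 5.13 CPM, then 1.89 and 1.55 CPM (log2 fold change -2.42, SE 0.37, adjusted p = 0.00166). These Fracture levels were below those of erythroid-like cells (2.55 and 17.4 CPM), and summed BMSC markers in osteoblast-like cells went from 82.7 and 57.5 CPM to 31.1 and 26.3 CPM (8 of 8 lower), whose part was not tested. The fall in BMSC-like cells exceeded that in chondrocyte-like cells by 2.84 on the log2 scale (SE 0.15, adjusted p = 8.9e-05) and was not shown to differ from that in osteoblast-like cells (difference -0.77, SE 0.50, adjusted p = 0.28). Without integration the first difference was -0.71 (adjusted p = 0.00886) and the second turned to 1.09 (adjusted p = 0.0041), while the second was -1.52 (adjusted p = 3.5e-09) without Control preparation 1 and -1.36 (adjusted p = 0.023) with doublets removed.

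In endothelial-like cells Cxcl14 was at 46.6 and 20.4 CPM, then 16.4 and 9.18 CPM (log2 fold change -1.29, SE 0.42, adjusted p = 0.0455). This call did not hold with called doublets removed (log2 fold change -0.16, adjusted p = 0.64) or under DESeq2 (adjusted p = 0.17), and the summed BMSC markers in these cells were at 1207 and 1147 CPM in Control and 420 and 406 CPM in Fracture (6 of 8 lower). Smooth muscle-like cells held it at 40.7 and 22.1 CPM, then 28.1 and 14.0 CPM, with overlapping groups and no call (adjusted p = 0.17). The change in BMSC-like cells less that in endothelial-like cells was -1.91 (SE 0.51, adjusted p = 0.0351). Less that in smooth muscle-like cells it was -2.46 (SE 0.41, adjusted p = 0.00116). Without integration these were 0.79 (adjusted p = 0.079) and -0.12 (0.94), and the first was -1.28 (0.23) without Fracture preparation 1 and -2.99 (0.00071) with doublets removed.

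In the blood classes Cxcl14 was not called. Granulocyte-like cells were at 18.3 and 9.44 CPM in Control and 0 and 43.0 CPM in Fracture, and megakaryocyte-like cells at 15.7 and 20.6 CPM, then 6.41 and 0 CPM. Of the 564 Cxcl14 UMIs of granulocyte-like cells, 436 lay in a subcluster of 101 cells. It was led by Col1a1, Col1a2 and the osteoblast markers Bglap and Bglap2. Erythroid-like cells were at 6.54 and 2.57 CPM, then 2.55 and 17.4 CPM.

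Cxcl16, the membrane-bound ligand, rose in 3 classes and fell in 1. In BMSC-like cells it was at 19.4 and 24.5 CPM in Control and 27.4 and 24.9 CPM in Fracture (log2 fold change 0.50, SE 0.13, adjusted p = 0.0175). The groups were nearly touching, and the call was lost with library sizes alone (0.26, adjusted p = 0.14) and without either Fracture preparation (adjusted p = 0.11 and 0.059). Without integration the groups overlapped in BMSC-like cells (-0.030, adjusted p = 0.97), and the rise stood in the fibroblast-like class (1.70, SE 0.23, adjusted p = 0.0045). In chondrocyte-like cells it was at 2.2 and 1.78 CPM, then 3.01 and 2.98 CPM (log2 fold change 0.70, SE 0.17, adjusted p = 0.0172, and 0.058 under DESeq2).

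In endothelial-like cells Cxcl16 was lower in Fracture, at 31.5 and 29.0 CPM, then 20.7 and 20.9 CPM (log2 fold change -0.42, SE 0.11, adjusted p = 0.0203, and 0.13 under DESeq2). The change in BMSC-like cells was above that in endothelial-like cells by 0.96 (SE 0.18, adjusted p = 0.0107), a call lost without either Fracture preparation (adjusted p = 0.11 and 0.069) and without integration (0.41, adjusted p = 0.59). Smooth muscle-like cells held it at 1.94 and 1.58 CPM, then 9.35 and 16.6 CPM (log2 fold change 2.79, SE 0.51, adjusted p = 0.0023, and 0.098 without Fracture preparation 2), a change above that in BMSC-like cells by 2.20 (SE 0.51, adjusted p = 0.00912, and 0.087 without Fracture preparation 2).

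Within BMSC-like cells, Cxcl16 rose in dpMSC-like cells from 25.4 and 33.1 CPM to 81.2 and 76.3 CPM (log2 fold change 1.67, SE 0.14, adjusted p = 5.6e-06). In mpMSC- and septoclast-like cells it fell from 13.7 and 13.3 CPM to 7.36 and 8.66 CPM (log2 fold change -0.63, SE 0.21, adjusted p = 0.0345, and 0.37 under DESeq2). The fibroblast subclass was at 13.9 and 7.61 CPM, then 11.5 and 12.2 CPM, with overlapping groups.

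Markers of other cells moved with the groups in the classes where these calls were made. Summed chondrocyte markers were at 2334 and 979 CPM in Control and 15990 and 15631 CPM in Fracture in endothelial-like cells, at 1038 and 1241 CPM, then 14380 and 8326 CPM, in smooth muscle-like cells and at 2771 and 1163 CPM, then 8961 and 8357 CPM, in BMSC-like cells, with 8 of 8 markers higher in each. Summed fibroblast markers in smooth muscle-like cells were at 778 and 753 CPM, then 1846 and 2438 CPM (5 of 8 higher, 0 lower). The smooth muscle markers of this class went from 41111 and 39240 CPM to 20336 and 21852 CPM (2 of 8 higher, 5 lower), erythroid markers from 44.0 and 93.9 CPM to 1596 and 1748 CPM (6 of 8 higher) and septoclast markers from 587 and 683 CPM to 2535 and 2070 CPM (6 of 8 higher). Summed monocyte, macrophage and dendritic markers, 7 of 8 in the tables, ranged from 10.8 to 13.4 CPM in Control and 12.1 to 14.0 CPM in Fracture in smooth muscle-like cells, and from 43.7 to 46.1 CPM, then 22.4 to 33.4 CPM, in BMSC-like cells. In chondrocyte-like cells, summed mpMSC markers went from 332 and 336 CPM to 1535 and 1616 CPM (4 of 6 higher, 1 lower). Septoclast markers there went from 593 and 617 CPM to 1550 and 1629 CPM (5 of 8 higher, 2 lower). In endothelial-like cells, endothelial markers went from 8823 and 8888 CPM to 6603 and 6509 CPM (1 of 8 higher, 7 lower). Erythroid markers there went from 314 and 199 CPM to 1129 and 1231 CPM (5 of 8 higher, 2 lower). No listed marker was at 0 in all preparations in these cases. Their part in the chemokine results was not tested.

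The share of cells with a UMI was compared after thinning each cell to 1000 UMIs, which left out 282, 25, 0 and 0 cells of the 4 preparations. Of 64 shares (8 members in 8 classes), 28 did not overlap between groups. These were 28 of the 58 with any such cell (48.3%), beside 47.0% over all genes, a share near the background. With 2 preparations per group the exact permutation test allows no p under 0.33, so none could pass. Cxcl1 was found in 0.371% (exact 95% interval 0.185 to 0.663) and 0.481% (0.22 to 0.912) of BMSC-like cells without fracture, against 3.56% (2.75 to 4.53) and 4.35% (3.49 to 5.34) with it. Without thinning these shares were 1.65%, 2.56%, 13.2% and 15.7%. The erythroid-like cells held Cxcl1 in 0%, 0%, 0% and 0.352%, where the exact intervals of the 3 counts of 0 reach up to 0.596%, 0.204% and 1.76% (3 counts of the total would be 0.486%, 0.166% and 1.44%). The intervals of BMSC-like and erythroid-like cells thus overlapped in Control preparation 1 and did not in Control preparation 2. Median depth before thinning was 5931.5 UMIs in Control and 9295.5 in Fracture for BMSC-like cells and 6561 and 7132.5 for erythroid-like cells.

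Cxcl14 was found in 53.2% (51.4 to 55.0) and 58.3% (56.0 to 60.5) of BMSC-like cells without fracture, against 7.51% (6.33 to 8.84) and 9.30% (8.06 to 10.7) with it, and erythroid-like cells held it in 0% to 0.704%. Cxcl9 was found in 4.12% and 10.2%, then 1.02% and 1.06%, of these cells, and in the same 0% to 0.704% of erythroid-like cells. In smooth muscle-like cells Cxcl1 was found in 0.840% and 0.948%, then 9.52% and 8.98%. These intervals cover counting error only.

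**Figure D5:**
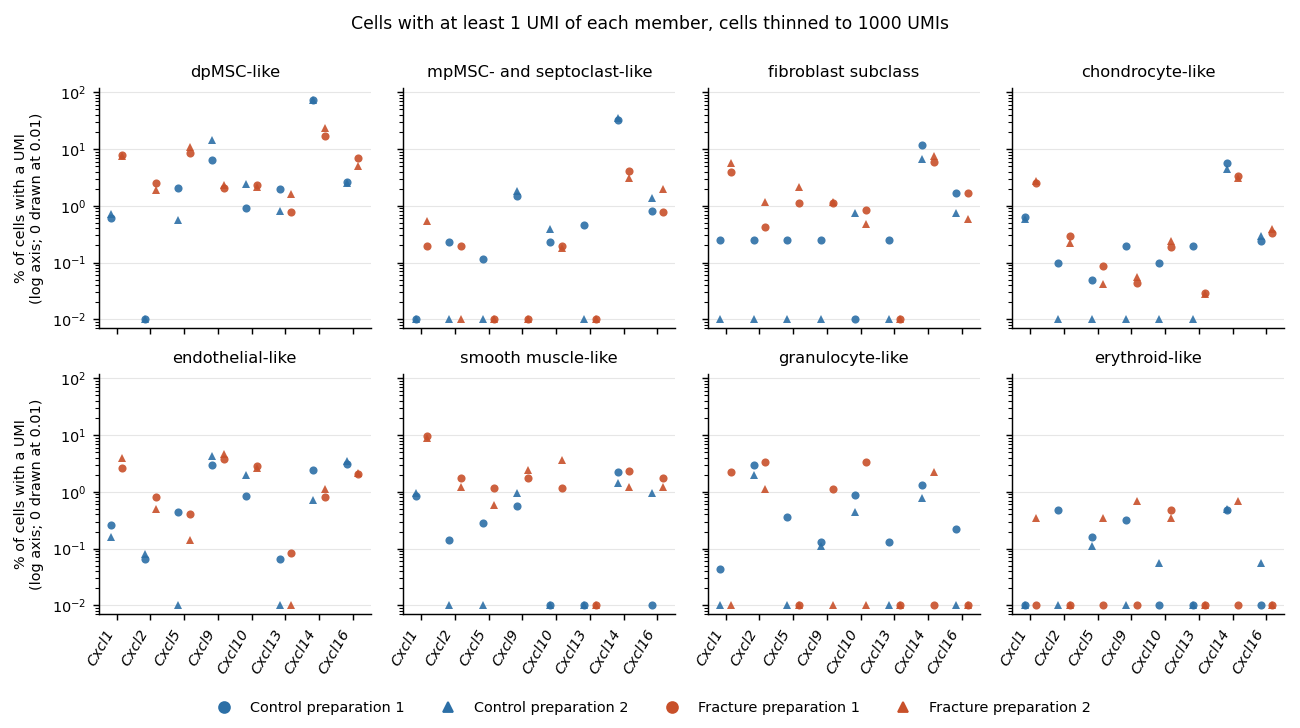
Percent of cells with at least 1 UMI of a member after thinning each cell to 1000 UMIs, in 5 cell classes and the 3 stromal subclasses, on a log axis with 1 point per preparation and shares of 0 drawn at 0.01. Cxcl14 in dpMSC-like cells sat at 74.3% and 72.7% in Control and at 16.8% and 23.1% in Fracture, and Cxcl1 in smooth muscle-like cells at 0.840% and 0.948%, then 9.52% and 8.98%.

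The other genes of the pathway were a list of 45 ligands, receptors, proteases and signalling genes, of which 44 were in the tables. In BMSC-like cells 7 of 38 tested rose and 24 fell, where 27.5% of all genes rose and 28.6% fell. Cxcl12, the stem cell niche factor, was at 16776 and 18912 CPM in Control and 799 and 917 CPM in Fracture (log2 fold change -4.14, SE 0.19, adjusted p = 8.1e-05). Cxcl3, another ligand of Cxcr2, held 1 UMI in Control and 531 in Fracture, a ratio of 442 with a counting interval of 79.1 to 17506.

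Of 13 genes of the NF-kB route, 3 rose in BMSC-like cells (Nfkbia, Nfkbiz and Zfp36) and 4 fell, shares near those of all genes. Il1rn, the antagonist of the interleukin-1 receptor, fell from 182 and 277 CPM to 8.42 and 11.5 CPM (log2 fold change -4.28, SE 0.25, adjusted p = 0.000143). In smooth muscle-like cells 4 of the 13 rose, where 18.6% of all genes did, among them the decoy receptor Il1r2, with 1 UMI in Control and 41 in Fracture (ratio 65.3, counting interval 11.1 to 2642).

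In chondrocyte-like cells 12 of 39 list genes tested rose and 7 fell (23.7% and 21.7% of all genes), and in osteoblast-like cells 7 and 11 of 33 (14.4% and 12.1%). In endothelial-like cells they were 3 and 13 of 38 (22.6% and 20% of all genes), and in smooth muscle-like cells 11 and 4 of 33 (18.6% and 16.8%). The platelet chemokines Pf4 and Ppbp were among the falls in all 5 classes outside the blood, and their level was highest in megakaryocyte-like cells, whose numbers were lower in Fracture. In smooth muscle-like cells Ppbp went from 83.8 and 114 CPM to 1.34 and 1.91 CPM and Pf4 from 241 and 196 CPM to 5.35 and 8.30 CPM (log2 fold changes -5.83 and -4.98). Among the largest other changes of the list were Cxcr4 in chondrocyte-like cells (-3.62, from 6.92 and 1.05 CPM to 0.330 and 0.318 CPM), Cxcl12 in osteoblast-like cells (-2.95, from 127 and 76.2 CPM to 15.5 and 12.3 CPM) and Dpp4, a protease that trims CXC ligands, in endothelial-like cells (-2.06, from 3.15 and 4.66 CPM to 0.990 and 0.729 CPM). In the subclasses, Cxcl3 in dpMSC-like cells held 0 UMIs in Control and 404 in Fracture, at least 254-fold higher when Control is set to a floor of 3 UMIs.

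Receptors for the members were rare in these blood-depleted cells. Cxcr2, the receptor of Cxcl1, Cxcl2 and Cxcl5, was highest in granulocyte-like cells, at 19.8 and 34.1 CPM in Control and 2.60 and 19.8 CPM in Fracture (adjusted p = 0.31). Cxcr3 stayed at or under 0.466 CPM in its highest class, and Cxcr6 reached 8.10 CPM in megakaryocyte-like cells. Cxcr5, the receptor of Cxcl13, was highest in smooth muscle-like cells, at 11.9 and 12.6 CPM, then 5.34 and 6.38 CPM (adjusted p = 0.058).

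Of the scavenging receptors, which take up ligand without driving migration, Ackr3 rose in BMSC-like cells from 60.5 and 45.9 CPM to 115 and 112 CPM (log2 fold change 1.33, SE 0.14, adjusted p = 0.000807). Among subclasses, Ackr3 was called lower in the fibroblast subclass. It was called higher in dpMSC-like cells (log2 fold change 6.56, SE 0.49) and in mpMSC- and septoclast-like cells (2.74, SE 0.38). These 2 subclasses reached at most 38.8 and 8.54 CPM in Fracture, below the class level. The fibroblast subclass made up 13.6% and 7.09% of the class in Control and 40.3% and 42.5% in Fracture. The part of this makeup in the class-wide rise was not tested. Ackr4 fell in BMSC-like cells from 200 and 222 CPM to 40.2 and 38.5 CPM (log2 fold change -2.18, SE 0.09, adjusted p = 6.2e-05). Cxcr4, the receptor of Cxcl12, was highest in granulocyte-like cells and fell from 309 and 260 CPM to 88.4 and 86.0 CPM (log2 fold change -1.74, SE 0.15, adjusted p = 0.0163).

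Genes whose level over the 32 class-by-preparation values followed a member most closely were found by Pearson correlation of log2(CPM + 1) among 11753 genes, as a description, since the values share libraries and cell classes. Nearest to Cxcl14 were Pdzrn4 (r = 0.923), Cilp (0.871) and Fgf7 (0.868), and nearest to Cxcl1 were Meg3 (0.916), Hspb8 (0.903) and Myof (0.902). For Cxcl5 they were Mmp19 (0.919), Ptprn (0.907) and Fhl1 (0.904), and for Cxcl2 Cep55 (0.857), Dusp5 (0.855) and Fam64a (0.841). Nearest to Cxcl9 were Thsd7a (0.899), F830016B08Rik (0.894) and the interferon-inducible GTPase gene Iigp1 (0.890), and to Cxcl16 Snx9 (0.904), Ifi204 (0.897) and Man1c1 (0.889). For Cxcl13 they were Olfml1 (0.898), Gm20619 (0.894) and Sfrp1 (0.877), and for Cxcl10 Chmp6 (0.85), Zfp57 (0.838) and H2-M3 (0.830).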

How the data were processed

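The authors deposited unnormalised UMI counts (1 line per gene and barcode) for 8 droplet libraries (Chromium 3' V3, NextSeq500). Per the labels, the build was mm10 and the tools included STAR 2.7.3a, UMI-tools 1.0.0, featureCounts 1.6.4 and bcl2fastq 2.19.1.403, while the published methods name STARsolo with the 10x barcode list and EmptyDrops as a filter before analysis. Whether that filter was applied to the deposited tables is not given in the sources used here. The members and gene lists were chosen with earlier results of these data known.

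The 290 genes whose symbols begin with U were left out. Cells of 500 to 6000 genes with at most 25% mitochondrial UMIs and genes in at least 3 cells were kept. Libraries were integrated in Seurat 5.3.0 (30 dimensions, 12 components, resolution 0.1), without chemokine and pathway genes among the features, and clusters were named from fixed markers. BMSC-like and osteoblast-like cells were clustered again (13 components, resolution 0.08). Scrublet in scanpy 1.11.5 called 525 doublets (1.16%), which were kept. UMIs were summed per class and preparation and tested in edgeR 4.0.16 (TMM, filterByExpr, quasi-likelihood, adjusted p under 0.05) on R 4.3.3, after tests on simulated data. CPM are plain. SE is the log2 fold change divided by the square root of F. Alternatives were DESeq2 1.42.0, other scalings and filters, left-out preparations, a block, separate libraries, doublets removed, deeper cells, no integration and other resolutions. Shares were compared by exact permutation tests (scipy 1.17.1).

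Values are given for a member in each class where its mean is at least 10 CPM or where it is called. Of the pathway list, Cxcl12, receptors in their highest class and called genes with the largest non-overlapping changes (up to 3 per class) were eligible to be named, with the 3 genes closest to each member. The counts for the interferon route of the list are not reported here. Gene symbols were matched to GENCODE M21, promoters to RefSeq.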

Additional observations from a re-analysis of the deposited data

Results flagged for a closer look

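These differences were flagged because the change after fracture was not the same in BMSC-like cells and in another class. The test was a class and group interaction in edgeR with Benjamini-Hochberg adjustment over all genes and the preparation as a block (n = 2 preparations per group). Such calls were common, at 43.2% of all genes against chondrocyte-like, 34.9% against osteoblast-like, 26.1% against endothelial-like and 18.6% against smooth muscle-like cells. Values are the log2 fold change in BMSC-like cells less that in the other class, and no explanation was weighed. Against chondrocyte-like cells, the difference was 1.14 for Cxcl1 (adjusted p = 0.0217), 3.27 for Cxcl5 (adjusted p = 0.0025) and -2.84 for Cxcl14 (adjusted p = 8.9e-05). Against osteoblast-like cells it was 4.48 for Cxcl2 (SE 0.78, adjusted p = 0.00463), where Cxcl2 held 8 UMIs or fewer in each preparation of osteoblast-like cells, and 4.19 for Cxcl5 (adjusted p = 0.000479). Against endothelial-like cells it was 4.01 for Cxcl5 (adjusted p = 0.00292), -2.49 for Cxcl9 (adjusted p = 0.0082), -1.91 for Cxcl14 (adjusted p = 0.0351) and 0.96 for Cxcl16 (adjusted p = 0.0107). Against smooth muscle-like cells it was -4.72 for Cxcl9 (adjusted p = 4.6e-05), -7.29 for Cxcl10 (adjusted p = 0.000197), -2.46 for Cxcl14 (adjusted p = 0.00116) and -2.20 for Cxcl16 (adjusted p = 0.00912). Without integration across libraries, 5 of these 13 kept their call and direction (Cxcl14 against chondrocyte-like cells, Cxcl9 against endothelial-like and smooth muscle-like cells, Cxcl10 and Cxcl16 against smooth muscle-like cells), 5 turned direction and 3 lost the call, and 10 to 13 kept call and direction with 1 preparation left out. Cxcl2 against osteoblast-like cells was 0.35 (adjusted p = 0.96) without integration and lost its call without Control preparation 1 as well.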

How the results depend on the processing

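Of 728 values recomputed for 71 single results, 644 kept their side of the threshold with no called sign turned, 49 lost a call, 20 gained one and 15 changed sign. The 17 rises over classes ranged from 13 to 23 when 1 preparation was left out, and the 7 falls from 2 to 11. With each library as its own replicate, 13 rose and 7 fell over classes. DESeq2 called 4 falls over classes, and with no filter on low counts there were 12. In subclasses the 10 rises ranged from 9 to 12 and the 5 falls from 5 to 8 with 1 preparation left out, and there were 9 falls with no filter. In those fits the lone preparation of a group is assumed to vary like the others. BMSC-like cells led for 5 members in place of 3 without integration. With 1 preparation left out, Cxcl10 ranged from -1.62 to 0.46 in BMSC-like and from -0.88 to 0.80 in dpMSC-like cells, with the sign changed without Control preparation 2, and Cxcl13 from -2.76 to 2.09 in dpMSC-like cells, changed without Fracture preparation 2. Signs also changed in BMSC-like cells without integration for Cxcl16 (-0.030), Cxcl5 (-0.29), Cxcl10 (0.37) and Cxcl13 (0.18). They changed too for Cxcl13 in BMSC-like cells without Fracture preparation 1, and for Cxcl9 in the fibroblast subclass at a resolution of 0.2 (-1.15). Without integration, of the differences printed above, those between BMSC-like and other classes turned sign for Cxcl1 (-0.59 against chondrocyte-like, -1.61 osteoblast-like, -1.24 endothelial-like, -1.71 smooth muscle-like), Cxcl5 (-1.93, -0.51 and -0.86 in that order, and -4.51 smooth muscle-like) and Cxcl14 (1.09 osteoblast-like, 0.79 endothelial-like). The causes were not tested. The 13 differences between classes ranged from 10 to 18 with 1 preparation left out, and the 28 shares without overlap were 40 without thinning, 40 at 3000 UMIs and 25 without integration, or 63.5%, 64.5% and 46.3% of those with such a cell, beside 56.3%, 50.5% and 46.2% over all genes.

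With the preparation number as a block, 16 members rose and 7 fell over classes (Cxcl1 in granulocyte-like cells was lost, adjusted p = 0.051) and 10 rose and 5 fell over subclasses. The deviations of same-numbered preparations correlated at -0.096 to 0.244 over the 8 classes, with 2 pairs, so the numbers were not taken to pair the samples.

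With n = 2 per group, low members rest on few UMIs, and barcodes reached down to 1 UMI in Control and 1900 in Fracture.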
